A study of Mus musculus with 8 samples.

Results

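The genes described here are Ago2 and 7 genes that share its stretch of mouse chromosome 15, namely Kcnk9, Trappc9, Peg13, Chrac1, Ptk2, Dennd3 and Slc45a4. They were taken by gene symbol, as members of the Peg13-Kcnk9 imprinted domain or as neighbours of the edited gene, and make up 8 of the 55416 genes in the count table. Of these 55416 genes, 32676 had at least 1 count and 18627, all 8 genes among them, entered the adjusted test. The study made knock-in mice with a leucine-to-proline substitution in Ago2, the counterpart of L192P in people with a neurodevelopmental disorder, and sequenced polyadenylated RNA from their cerebral cortex. The 4 L192P libraries came from mice heterozygous for the edited allele (AGO2_L192P/+) and the 4 WT libraries from wild-type mice, with no treatment named for either group. The edit was made by Cas9 with a single guide and a repair template, founders were crossed to wild-type C57/Bl6 animals, and heterozygotes were bred with wild-type mice. Age, sex and the parent that passed on the edited allele are not given in the sources used here. The labels do not say that each library came from a separate animal, so p-values measure the spread between these libraries.

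Imprinted genes are read mainly from the allele of one parent. In this domain the paternal allele expresses Peg13, a long non-coding RNA whose promoter region carries the methylation imprint of the domain, while in brain the potassium channel gene Kcnk9 is read from the maternal allele, and Trappc9, Chrac1 and Ago2 favour the maternal allele. Gene-level counts sum both alleles, so the values below describe total RNA of each gene and not the share of either parent.

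The edited site is shown first because it places the substitution within the domain. It lies in exon 5 of 19 of the canonical Ago2 transcript, within the coding sequence. The following windows hold codon 193 of mouse Ago2 in capitals, written 5′ to 3′ along the mRNA strand (GRCm39, chr15:73000240-73000266, minus strand), in the reference genome and in the repair template.
Ago2 codon window, reference: tgttccaaccctCTGggtgggggcaga
Ago2 codon window, repair template: tgttccaaccctCCAggtgggggcaga
Counted from the 5′ end of the 120-base template along the mRNA strand, the reference base coming first, the template carried T39C and G40A, which give L193P, the substitution that the labels name L192P after the human residue. A further difference, C79T, is silent (S206S) and falls in the motif next to the guide's target. That target is shown with the motif that Cas9 requires (NGG) in capitals, 5′ to 3′ on the plus strand (GRCm39, chr15:73000192-73000214), because the template takes the motif away.
Guide target, reference: tttccaaagagaaggtcggaCGG
Guide target, repair template: tttccaaagagaaggtcggaCAG
These 3 differences were all that separated the template from the genome. The counts do not show which allele a read came from, so the share of edited Ago2 mRNA was not analysed here.

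On GRCm39 chromosome 15 the 8 genes span 1.14 Mb. Kcnk9 (ENSMUSG00000036760, 72372938 to 72419556, minus strand) lies at the low-coordinate end, 41.9 kb from Trappc9 (ENSMUSG00000047921, 72461467 to 72934559, minus strand). Peg13 (ENSMUSG00000106847, 72677449 to 72682173, minus strand) is a single exon of 4725 bases inside the span of Trappc9. It is read from the same strand, and 1293 of its bases, 27.4% of the gene, are also annotated as exon of Trappc9. Chrac1 (ENSMUSG00000068391, 72962241 to 72969403, plus strand) and Ago2 (ENSMUSG00000036698, 72967693 to 73056784, minus strand) overlap at their ends by 219 exonic bases on opposite strands, which are 9.31% of the exons of Chrac1 and 1.55% of those of Ago2. Beyond Ago2 follow Ptk2 (ENSMUSG00000022607, 73076832 to 73295129, minus strand), Dennd3 (ENSMUSG00000036661, 73384383 to 73444091, plus strand) and Slc45a4 (ENSMUSG00000079020, 73449268 to 73517611, minus strand). Ptk2 hosts the miRNA gene Mir151, which had 0 counts in these libraries of polyadenylated RNA. How the counting treated reads on shared bases is not given in the sources used here, so the counts of Peg13 and Trappc9, and of Chrac1 and Ago2, are uncertain to the extent of these overlaps.

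The libraries held between 20396357 and 43575900 counts, with WT replicate 2 the deepest. Xist RNA was nearly missing from the replicate 1 libraries of L192P and WT (0.934 and 1.82 normalized counts) and stood at 5185 to 7257 in the other 6. The tissue label was checked on the cortical excitatory neuron markers Slc17a7, Neurod6, Tbr1, Fezf2 and Cux2, all of them well counted. Their summed normalized counts were 35481 to 40114 (L192P) and 40423 to 42285 (WT), ranges that did not overlap. Slc17a7, with means of 30262 (L192P) and 33185 (WT), made up most of these sums. Taken singly, all 5 markers overlapped between genotypes. None of these 5 markers passed the DESeq2 test over all genes, 2 had an unadjusted p under 0.05, and 3 passed when the replicate number was added to the fit. Of all tested genes, 9.44% had an unadjusted p under 0.05, and 4.25% of those tested with the replicate number passed. Of 5 hypothalamic markers only 3 were tested, and of these Avp and Oxt passed, both higher in L192P. The summed list stood at 518, 51.2, 1054 and 387 normalized counts in L192P replicates 1 to 4 against 26.0 to 41.9 in WT. The summed thalamic markers ranged from 2505 to 4852 in L192P and from 2553 to 3011 in WT, with 0 of 4 called and 1 at an unadjusted p under 0.05. The 6 GABAergic neuron markers went both ways, with Gad2 called at a log2 fold change of 0.34, Pvalb at -0.22 (DESeq2 adjusted p = 0.121, and 0.0091 with the replicate block), 4 positive and 2 negative values and 3 at an unadjusted p under 0.05. DESeq2 called 0 of the markers of astrocytes, oligodendrocytes, microglia, endothelium or choroid plexus with genotype as the only term, although 2 microglial markers had an unadjusted p under 0.05 and Cx3cr1, higher in L192P, passed with the replicate block (adjusted p = 0.042). The block left Avp called and Oxt without an adjusted p. In bulk tissue, fewer cells of a type and less RNA per cell cannot be told apart.

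Per length of exon, Peg13 was by far the most abundant of the 8 transcripts and Dennd3 the least. Peg13 reached 2365 ± 140.5 normalized counts per kb (SD over the 8 libraries), above 98.7% of the tested genes with an annotated length, and took between 50.2% and 53.3% of the reads of the 8 genes in every library. Ptk2 came next with 251 ± 11.3 normalized counts per kb, and Peg13 was 9.42 times as high. The following genes were Chrac1 with 183 ± 20.3, Ago2 with 161 ± 7.18, Slc45a4 with 126 ± 6.32, Kcnk9 with 114 ± 11.2 and Trappc9 with 76.6 ± 4.03 normalized counts per kb. Dennd3 had 9.73 ± 2.60 normalized counts per kb and lay above only 20.4% of tested genes. In this order, the ranges of Chrac1 and Ago2 overlapped, as did those of Slc45a4 and Kcnk9, whereas every other neighbouring pair was separated in all 8 libraries. How reads from overlapping exons were counted is not given, so the levels of Peg13, Trappc9, Chrac1 and Ago2 carry the uncertainty given above. The bases that Peg13 and Trappc9 share are 27.4% of the exon length of Peg13 and 5.51% of that of Trappc9. Exon length was the union of all annotated exons of a gene, 23458 bases for Trappc9 and 13667 for Kcnk9. Annotated exons that are rarely used lower the value per kb, so the order of levels depends on the annotation as well.

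**Figure D1:**
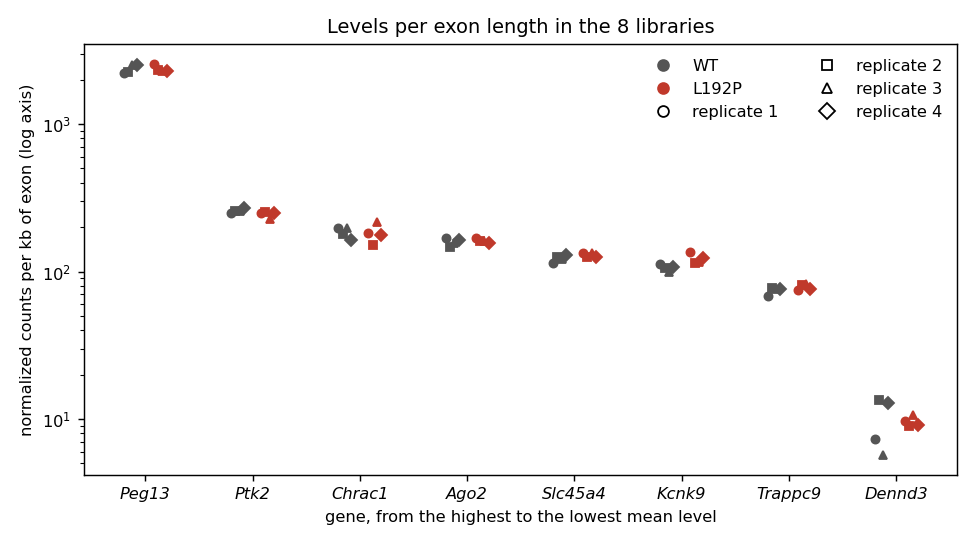
Normalized counts per kb of exon (log axis) of each gene in the 8 libraries, grey for WT and red for L192P, with the symbol giving the replicate number and genes ordered by mean level. Peg13 lies 9.42 times above Ptk2, the next gene, and Dennd3 lies lowest with the widest spread in WT.

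The comparison of L192P with WT asked whether RNA levels in the domain around the edited gene differ between genotypes. None of the 8 genes passed the DESeq2 test over all genes, where 1.36% of tested genes did. Kcnk9 came closest, with every L192P library above every WT library and a mean 1.15 times higher. Levels of Peg13, Trappc9, Chrac1, Ago2, Ptk2, Dennd3 and Slc45a4 overlapped between genotypes. By edgeR and by limma-voom 0 of the 8 genes were called as well, and each of the 3 tools gave 1 gene, Kcnk9, an unadjusted p under 0.05, as 9.44% of all tested genes had by DESeq2. The median log2 fold change of the 8 genes was 0.014, with 4 positive and 4 negative values, beside a median of 0.0019 over all tested genes.

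**Figure D2:**
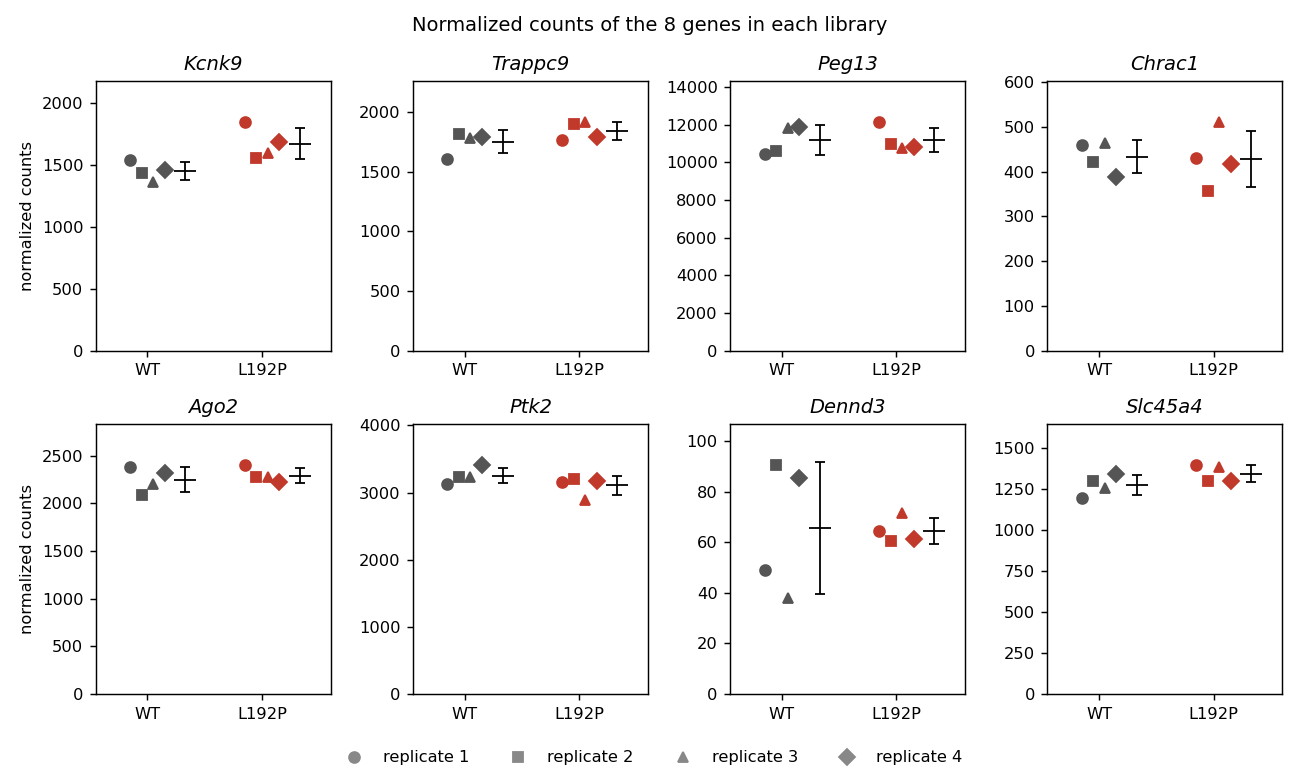
Normalized counts of the 8 genes in each library, grey for WT and red for L192P, with the symbol giving the replicate number and the black bar the mean ± SD (n = 4). The 4 L192P libraries lie above all 4 WT libraries for Kcnk9, and both genotypes overlap for the other 7 genes.

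Peg13, the paternally expressed RNA of the domain, had nearly equal means in both genotypes. The L192P replicates 1 to 4 held 12125, 10982, 10755 and 10801 normalized counts, and the WT replicates 10431, 10584, 11816 and 11893. Replicate 1 was the highest library in L192P and the lowest in WT, and the ranges overlapped. The means were 11166 ± 647 in L192P and 11181 ± 781 in WT (SD, n = 4). The log2 fold change was -0.0015 ± 0.07 (SE; 95% interval -0.13 to 0.13; DESeq2 adjusted p = 0.998), and total-count size factors turned it to 0.024. A fold change outside 0.912 to 1.09 thus lay beyond the interval.

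Kcnk9 encodes TASK-3, a tandem-pore potassium channel that carries background current in neurons and is the maternally expressed gene of the domain. Its normalized counts were 1846, 1560.2, 1596 and 1688 in L192P replicates 1 to 4. The WT replicates had 1542, 1434, 1361 and 1463. The lowest L192P library therefore lay just above the highest WT library, so any pairing of libraries is higher in L192P. The log2 differences of the same-numbered pairs were 0.26, 0.12, 0.23 and 0.21. Groups that did not overlap were found for 5.97% of all tested genes. The means were 1672 ± 127.6 in L192P and 1450 ± 74.7 in WT (SD, n = 4). DESeq2 gave a log2 fold change of 0.21 ± 0.07 (SE), a 95% interval of 0.06 to 0.35, an unadjusted p of 0.0057 and an adjusted p of 0.185.

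The call on Kcnk9 turned on whether the replicate number was part of the fit. With the number as a block, the log2 fold change was 0.20 ± 0.06 (SE) and the DESeq2 adjusted p was 0.042, in a fit that called 533 of the 12536 genes left by its own independent filter (4.25%). Over the other alternatives the adjusted p ran from 0.072, without WT replicate 1, to 0.605, without WT replicate 3, while the fold change stayed positive in every one of them. Without replicate 1 of both genotypes, which leaves the 6 Xist-high libraries, the log2 fold change was 0.18 and the adjusted p 0.186. Between the replicate 1 libraries alone the log2 difference was the 0.26 given above. The hypothalamic markers were highest in L192P replicate 3, and without that library the log2 fold change was 0.23 with an adjusted p of 0.250. Within L192P, replicate 2 had the lowest hypothalamic sum and the lowest Kcnk9, and replicate 3 had the highest hypothalamic sum and the next lowest Kcnk9. The part of these markers and of the excitatory neuron markers in the level of Kcnk9 was not tested.

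Trappc9, which encodes a subunit of the TRAPP complexes of vesicle transport and is mutated in an intellectual disability, showed a small spread and overlapping groups. Its normalized counts were 1770.4, 1900.4, 1916 and 1791 in L192P replicates 1 to 4 and 1607, 1819, 1782 and 1793 in the WT replicates. The WT replicate 1 library was the lowest of all 8. With means of 1844 ± 74.5 and 1750.3 ± 96.6 (SD, n = 4), the log2 fold change was 0.08 ± 0.07 (SE), its 95% interval -0.05 to 0.20, and the DESeq2 adjusted p 0.843.

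Chrac1, a histone-fold subunit of the CHRAC chromatin remodelling complex, varied more among L192P libraries than the larger genes did. Normalized counts of 429.8, 357, 511 and 417 were found in L192P replicates 1 to 4, and of 461, 422, 465 and 387 in the WT replicates. L192P held both the lowest and the highest library. The coefficient of variation was 14.7% among L192P and 8.40% among WT libraries. On the log2 scale the fold change was -0.02 ± 0.12 (SE; 95% interval -0.25 to 0.21; DESeq2 adjusted p = 0.993), and total-count size factors turned it to 0.0064.

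Ago2, the edited gene, encodes the Argonaute protein that carries miRNAs to their target mRNAs and can cut fully matched targets. Libraries of L192P replicates 1 to 4 held 2398, 2273, 2273 and 2222 normalized counts, and those of the WT replicates held 2380.3, 2083, 2207 and 2316. The highest library was 1.08 times the lowest in L192P and 1.14 times in WT, and the ranges overlapped. The 95% interval of the log2 fold change, -0.09 to 0.16, left room for a fold change between 0.936 and 1.11 (DESeq2 adjusted p = 0.968). The fold change was positive, 0.03 on the log2 scale, and turned to -0.0075 without WT replicate 2.

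Ptk2 encodes focal adhesion kinase, a tyrosine kinase at contacts between the cell and its matrix. The L192P libraries, replicates 1 to 4, held 3161, 3203, 2887 and 3168 normalized counts, and the WT libraries 3133, 3228, 3229.5 and 3404. L192P replicate 3 stood below the other 7 libraries, and WT replicates 2 to 4 stood above every L192P library. WT replicate 1 lay between L192P replicate 3 and the other L192P libraries, so the ranges overlapped. The log2 fold change was -0.06 ± 0.06 (SE), with a 95% interval of -0.18 to 0.05 and a DESeq2 adjusted p of 0.853.

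Dennd3, which encodes an activator of the small GTPase Rab12, was the least precisely measured gene, with between 35 and 160 counts in a library. Its L192P replicates 1 to 4 were close together at 64.5, 60.3, 71.5 and 61.1 normalized counts. The WT replicates, at 49.2, 90.4, 38.0 and 85.5, enclosed all of them and differed by up to 2.38 times. The log2 fold change of -0.04 ± 0.27 (SE) had a 95% interval of -0.58 to 0.49 (DESeq2 adjusted p = 0.993), so a fold change between 0.671 and 1.41 lay within the interval. The coefficient of variation was 39.6% among WT and 7.92% among L192P libraries. With the replicate block its value was 0.04, and the independent filter then left it without an adjusted p.

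Slc45a4, a solute carrier of the SLC45 family, lies farthest from Kcnk9. Normalized counts were 1392, 1296, 1384 and 1296 in L192P replicates 1 to 4 and 1194, 1294, 1256 and 1342 in the WT replicates. WT replicate 1 was the lowest and L192P replicate 1 the highest of the 8 libraries, with the others intermixed. The log2 fold change was 0.08 ± 0.07 (SE), with a 95% interval of -0.05 to 0.21 and a DESeq2 adjusted p of 0.829.

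**Figure D3:**
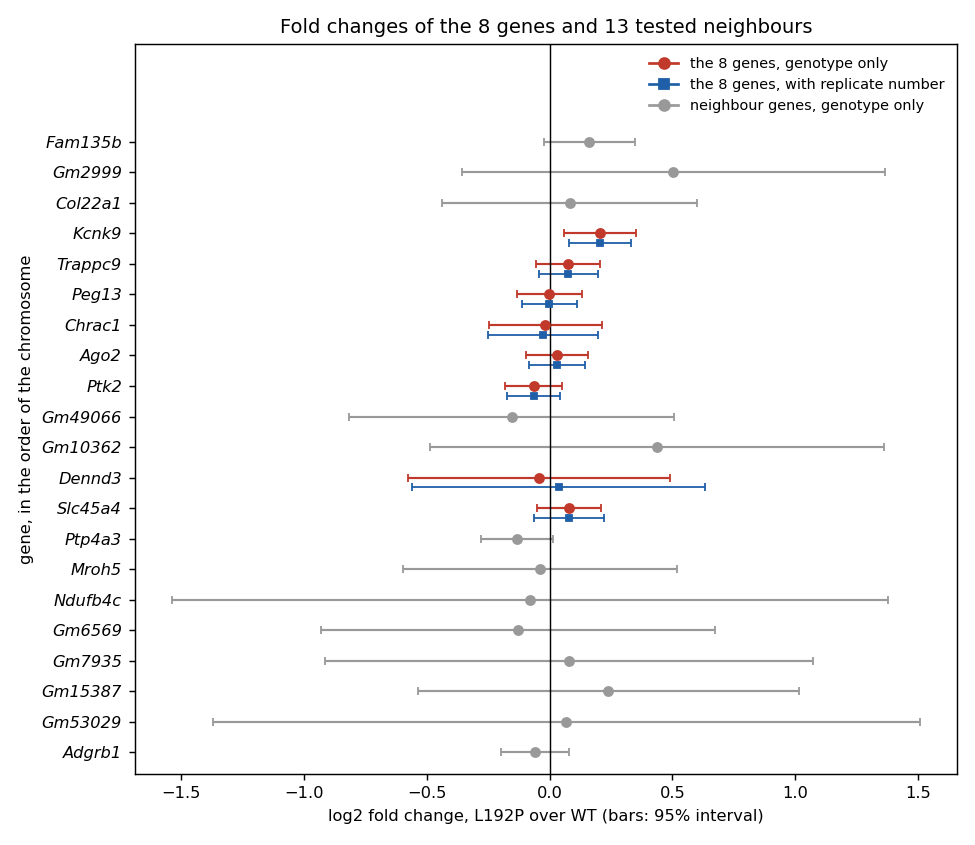
Log2 fold changes of L192P over WT with 95% intervals for the 8 genes (red circles, genotype only; blue squares, with the replicate number) and for 13 tested neighbour genes (grey), in the order of the chromosome. The interval of Kcnk9, 0.06 to 0.35, lies above 0, and those of the other 7 genes and of the neighbours include 0.

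Ratios within a library do not depend on its scaling, and 3 were compared by an exact two-sided permutation test over libraries, for which 4 against 4 allow no p below 0.029. Peg13 held between 5.61 and 6.85 times the counts of Trappc9 in L192P and between 5.82 and 6.63 times in WT. The log2 ratio differed by -0.08 (2.60 ± 0.13 in L192P and 2.67 ± 0.09 in WT, SD, n = 4), with an exact p of 0.371. L192P replicate 1 had the highest ratio of the 8 libraries and L192P replicate 3 the lowest.

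The ratio of Kcnk9 to Peg13 sets the maternally read gene against the paternally read RNA. It was 0.152, 0.142, 0.148 and 0.156 in L192P replicates 1 to 4 and 0.148, 0.135, 0.115 and 0.123 in the WT replicates. WT replicate 1 reached the L192P range, and the other 3 WT libraries lay below it. The log2 ratio was higher in L192P by 0.21 (-2.74 ± 0.06 in L192P and -2.95 ± 0.16 in WT, SD, n = 4), with an exact permutation p of 0.057 and 0.171 after Benjamini-Hochberg adjustment over the 3 ratios.

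The ratio of Chrac1 to Ago2, genes that overlap at their ends, ran from 0.157 to 0.225 in L192P and from 0.167 to 0.211 in WT. L192P again held the lowest and the highest library. The difference in log2 ratio was -0.05 (-2.43 ± 0.21 in L192P and -2.37 ± 0.15 in WT, SD, n = 4; exact permutation p = 0.686), and without L192P replicate 2 it was 0.03.

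**Figure D4:**
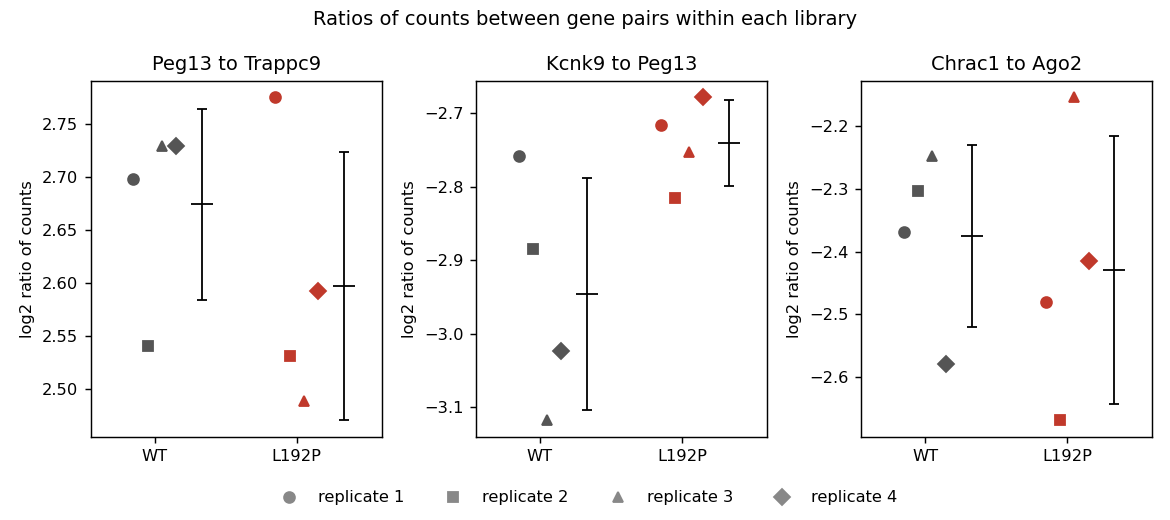
Log2 ratio of counts within each library for 3 pairs of genes, grey for WT and red for L192P, with the symbol giving the replicate number and the black bar the mean ± SD (n = 4). The axes do not start at 0. For Kcnk9 to Peg13, WT replicate 1 at -2.76 lies within the range of the L192P libraries and the other WT libraries lie below it.

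The count table held 34 further genes inside the span of the 8 genes or within 1 Mb of it, of which 13 had enough counts to be tested and 9 had 0 counts in every library. DESeq2 called 0 of the 13, and 0 had an unadjusted p under 0.05. By edgeR, which tested 25 of the 34, 0 were called and 1 had an unadjusted p under 0.05, and by limma-voom both counts were 0 of 11. With the replicate block DESeq2 left 3 neighbours with an adjusted p, called 0, and gave 2 an unadjusted p under 0.05. These 2 were Fam135b and Ptp4a3, with DESeq2 adjusted p of 0.275 and 0.307 in that fit. The share of all genes at that unadjusted level in the block fit is not given here. The neighbour with the most counts was Adgrb1, an adhesion receptor of neurons, at 8940 ± 451 normalized counts (L192P) against 9302 ± 788 (WT; SD, n = 4) and a log2 fold change of -0.06 ± 0.07 (SE). Ptp4a3, a phosphatase beyond Slc45a4, had 1852 ± 128.0 and 2027 ± 135.5 normalized counts and a log2 fold change of -0.13 ± 0.07 (SE; DESeq2 adjusted p = 0.618). Fam135b, on the far side of Kcnk9, had 1207 ± 120.3 and 1081 ± 101.7 normalized counts and a log2 fold change of 0.16 ± 0.09 (SE; DESeq2 adjusted p = 0.640). The groups overlapped for all 13 neighbours.

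Genes elsewhere in the genome were read from the same fit. They work with the 8 genes, share their gene families, or keep imprints and insulate domains, and all are called partners here. Of 83 such genes in 8 lists, 77 were tested and DESeq2 called 0, with 9 at an unadjusted p under 0.05, where 9.44% of all tested genes were. EdgeR and limma-voom also called 0, with 9 each at an unadjusted p under 0.05. The median log2 fold change of the 77 was 0.016. The 3 Argonaute paralogs of Ago2 had a median of -0.014, and Ago4, at 316 ± 19.3 normalized counts (L192P) against 350.5 ± 29.6 (WT), had the smallest adjusted p of them (0.746).

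Among tandem-pore potassium channels related to Kcnk9, 9 of 13 were tested, with a median log2 fold change of 0.021. Kcnk2, which encodes the mechanically gated channel TREK-1, averaged 2375 ± 178 normalized counts (L192P) against 2665 ± 211 (WT), for a log2 fold change of -0.17 ± 0.08 (SE; DESeq2 adjusted p = 0.456). Its direction was opposite to that of Kcnk9, and its groups overlapped. The 14 tested genes of the TRAPP complex besides Trappc9 had a median of -0.0039, with 7 positive and 7 negative values. Trappc6a, a subunit of the core, had the smallest adjusted p (0.743) at a log2 fold change of 0.24 ± 0.17 (SE).

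The partners of Chrac1 in chromatin remodelling and DNA polymerase epsilon had a median log2 fold change of 0.13, and 8 of 10 were positive. By DESeq2 3 of the 10 had an unadjusted p under 0.05, where 9.44% of all tested genes did. Groups did not overlap for 1 of the 10, Bptf (2241 to 2500 in L192P, 1907 to 2231 in WT), and for 5.97% of all tested genes. The median over all tested genes was 0.0019. Rsf1, a partner of the remodelling ATPase Smarca5, averaged 1185 ± 81.1 normalized counts (L192P) against 1028 ± 66.7 (WT), for a log2 fold change of 0.21 ± 0.08 (SE; DESeq2 adjusted p = 0.229). Smarca1, the paralog of Smarca5, passed with the replicate block, at a log2 fold change of 0.29 (DESeq2 adjusted p = 0.042, and 0.358 with genotype as the only term). Its normalized counts overlapped between L192P (822 to 1000.2) and WT (611 to 936).

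The factors that keep imprints or insulate domains, among them Ctcf, cohesin subunits, Zfp57, Trim28 and Dnmt1, had a median log2 fold change of 0.08, and 10 of 11 values were positive. Over all tested genes the median was 0.0019. None of the 11 was called by DESeq2, and 3 had an unadjusted p under 0.05, where 9.44% of all tested genes did. Stag2, a cohesin subunit, ranged over 1794 to 1850.4 (L192P) and 1489 to 1680.1 (WT) normalized counts. Its groups did not overlap, nor did those of Stag1, another cohesin subunit. That made 2 of the 11 genes, where 5.97% of all tested genes had groups that did not overlap. The log2 fold change of Stag2 was 0.17 ± 0.06 (SE; DESeq2 adjusted p = 0.191). Ctcf, the insulator protein, stood at a log2 fold change of 0.0054 ± 0.06 (SE; DESeq2 adjusted p = 0.998).

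Lists around the flanking genes Ptk2, Dennd3 and Slc45a4 held 0 called genes, as above. The 13 tested partners of focal adhesion kinase had a median log2 fold change of 0.0045, and Rb1cc1, an autophagy factor that binds this kinase, had the smallest adjusted p (0.612) at 0.14 ± 0.08 (SE). For the 15 DENN domain genes the median was 0.013, and Dennd1c, at 51.6 ± 12.5 normalized counts (L192P) against 34.9 ± 2.62 (WT), had the smallest adjusted p (0.450). Of the SLC45 family 2 genes were tested, and Slc45a1 had a log2 fold change of 0.09 ± 0.08 (SE; DESeq2 adjusted p = 0.843).

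Likeness of pattern was measured as the mean absolute difference of centred log2 normalized counts over the 8 libraries, among 13414 other genes with a mean of at least 50 normalized counts. For each gene the smallest of these differences were picked, so values far below the median gene follow from the choice and are no test of likeness. The genes most like Ago2 were Mdga2, Ankrd46 and Nicn1, with differences of 0.016, 0.017 and 0.017, where the median gene differed by 0.11. Peg13 was followed most closely by Arhgap19, Camsap1 and Ncoa3, at 0.028, 0.028 and 0.029 (median gene 0.12). Those nearest to Kcnk9 were Trmt10b, Ppat and Zfp354c, at 0.022, 0.032 and 0.032 (median gene 0.15). Among the 8 genes themselves the closest pair was Trappc9 and Slc45a4, at 0.046.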

How the data were processed

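Polyadenylated RNA of mouse cerebral cortex was sequenced from 4 L192P and 4 WT libraries prepared with a stranded kit. Per the labels, the authors used STAR 2.7.9a and featureCounts 1.5.1, and they deposited raw counts per gene for each library without pooling. The strand setting is not given in the sources used here. The authors' second table, counts divided by DESeq2 size factors, was not used, and 0 other value columns were left out.

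Counts were fitted with DESeq2 1.42.0 (R 4.3.3) with genotype as the only term, over all genes, with independent filtering and a Benjamini-Hochberg adjusted p under 0.05. Fold changes were not shrunken, intervals are 1.96 SE, and normalized counts are counts divided by size factors. Depth was 20396357 to 43575900 counts, so genes with few counts have wide intervals. Positions and exon lengths came from GENCODE M39 on GRCm39, which held 98.8% of the gene identifiers. The repair template was aligned to that genome. Ratios were compared by exact permutation tests (scipy 1.17.1).

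The members and gene lists were chosen with earlier results of these data known. All 8 genes were named, as were the 3 neighbours with the most counts, any neighbour or partner called, the partner with the smallest adjusted p in each list, and the 3 genes most like Ago2, Peg13 and Kcnk9 (log2 of normalized count plus 1). Smarca1, Bptf, Stag1 and Ctcf, the marker genes and the pair of closest members were named after their values were seen. Trappc2b and Arhgap26 had no single row in the table, and 1 marker gene is not reported here.

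Same-numbered libraries of both genotypes deviated together from their group means (correlations of 0.233 to 0.628 over 13422 genes, against -0.375 to 0.144 for other pairs), so a fit with the replicate number as a block is given where it changes a call. The labels do not say what the numbers stand for. No pair of libraries of a genotype agreed within sampling noise (chi-square per degree of freedom 6.04 to 25.3). Alternatives were edgeR 4.0.16, limma 3.58.1 (voom), TMM and total-count factors, a filter of 10 counts in 4 libraries, no independent filtering, the block, and leaving out libraries. The programs were also run on counts simulated without a replicate effect, which cannot judge the block. The outcome of that run is not reported here.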

Additional observations from a re-analysis of the deposited data

Results flagged for a closer look

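In 22 groups of 4 libraries (8 genes and 3 ratios in each genotype), the gap between an extreme library and its nearest neighbour was divided by the range of the group, and 3 groups passed Dixon's 95% limit for 4 values, where chance gives about 1 in 20, or 1.1 of 22. Peg13 in L192P replicate 1 stood at 12125 normalized counts against 10755 to 10982 in the other 3 libraries (0.835 of the range). Ptk2 in L192P replicate 3 stood at 2887 against 3161 to 3203 (0.867 of the range). The log2 ratio of Peg13 to Trappc9 in WT replicate 2, the deepest library, was 2.54 against 2.698 to 2.730 (0.834 of the range). Without these libraries in turn, the log2 fold change of Peg13 was -0.045, that of Ptk2 was -0.03 and the difference in log2 ratio was -0.12. Neither gene passed the DESeq2 test, and the exact permutation test of the ratio cannot pass with 1 library left out.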

How the results depend on the processing

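Of 158 alternative fold changes and ratios, 140 kept both direction and side of the threshold. For the ratios, every alternative left too few libraries or pairs for a p under 0.05, so only their direction could change. Of 64 alternative counts of calls, 50 were within 1.5 times the count reported. Genes called over the whole table numbered 253, and 41 by limma-voom, 533 with the replicate block, 500 without replicate 1 of both genotypes, and 112 (without WT replicate 4) to 496 (without WT replicate 1) when 1 library was left out. Leaving out L192P replicates 1 to 4 gave 275, 156, 126 and 157, and WT replicates 2 and 3 gave 114 and 127. The replicate block moved members called from 0 to 1 (Kcnk9, log2 fold change 0.20) and partner genes called from 0 to 1 (Smarca1). Without replicate 1 of both genotypes 2 partners were called (Smarca1 and Dennd11, the latter at -0.23), and leaving out 1 library gave 0 to 1 (Smarca1, without WT replicate 1). The block called no other member, neighbour or partner and changed no call on the ratios, and with 4 pairs a sign-flip test of the ratios cannot go below 0.125, the value of Kcnk9 to Peg13.

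Directions of small, uncalled values turned. Peg13 was 0.00036 by limma-voom and 0.024 with total-count factors, and -0.045 to 0.029 with 1 library left out (positive on leaving out any of L192P replicates 2 to 4, WT replicate 3 or WT replicate 4). Chrac1 was 0.0064 with total-count factors, 0.0098 without replicate 1 of both genotypes, and -0.11 to 0.059 with 1 library left out (positive on leaving out L192P replicate 2, WT replicate 1 or WT replicate 3). Ago2 ran from -0.0075 (without WT replicate 2) to 0.059. Dennd3 was 0.038 with the replicate block and -0.23 to 0.17 with 1 library left out (positive without WT replicate 2 or 4). The ratio of Chrac1 to Ago2 ran from -0.15 to 0.025 (positive without L192P replicate 2). The cause was not tested. Dennd3 had the widest interval of the 8 genes, and allele shares cannot be read from gene counts.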
